A study of Ulva lactuca with 7 samples.

Results

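Thalli of Ulva lactuca that had been resubmerged for 1 h after 72 h of drying were compared with thalli taken at the end of 72 h of drying, before any return to water. The comparison covers 64704 of the 137594 assembled transcripts, from 21534 of 90206 assembled genes. These transcripts averaged 10 or more counts across the 7 libraries. Left out were 1342 that had 50 or more counts in the 72 h desiccated library and 20 or more times the CPM of every other library, where CPM is the count scaled to a common library total. Whether those come from another organism was not tested. The resubmerged thalli spent 1 h in autoclaved seawater, the desiccated thalli were dried for 72 h at 20% moisture, and each condition is 1 library. For context the same steps after 24 and 36 h of drying and a control that always stayed under seawater were used, again with 1 library each. The control carries a title that starts with 24, like the 24 h libraries, and was assigned by its treatment label alone. All thalli had been collected and then kept in the laboratory to acclimate. The sources used here do not give whether a library held 1 thallus or several.

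Ulva lactuca, the sea lettuce, is a green alga with thin blades that grows in the intertidal zone and has no roots, cuticle or stomata to hold water. A blade left dry by the tide loses water to the air and takes it up again over its whole surface once submerged. During drying such algae are known to slow photosynthesis and to raise protective proteins, sugars and antioxidants, and on return to water they restart metabolism and repair. The identifiers in the files come without gene names or products, so transcripts are given by their assembly identifier, their length and their GC content, and no list by function could be made. For the same reason the tissue label could not be checked against marker genes.

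The total count was 78585833 in the library resubmerged after 72 h. In the 72 h desiccated library it was 63782317, the lowest of the 7 libraries, which ranged up to 97270080. Members held 99.7% of the counts in the resubmerged library and 98.1% in the desiccated library. The 1342 transcripts left out took 1.42% of the counts of the 72 h desiccated library and 0.00682 to 0.0249% of those of the other libraries. Just inside the limit of 20, and so kept, were c8064_g1_i1, c30885_g1_i4 and c23849_g1_i1, at 19.9, 19.9 and 19.8 times every other library. Just outside were c30885_g1_i1, c29618_g1_i2 and c31943_g1_i5, at 20.1, 20.1 and 20.2 times. An isoform of 1 assembled gene, c30885_g1, therefore stands on each side. The 72 h desiccated library also stood apart among the members: 844 members had at least 50 counts there and at least 5 times the CPM of any other library, against 139 such members for the library resubmerged after 72 h and 32 to 373 for the other 5. By this definition the 844 are at least 4-fold lower after resubmergence.

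The question of the comparison is which transcripts differ within 1 h of return to seawater. At least 4-fold higher in resubmerged than in desiccated thalli were 2713 transcripts in 2130 assembled genes, which is 4.19% of the members. At least 4-fold lower were 3616 transcripts in 1847 assembled genes, or 5.59%. With 1 transcript per assembled gene the order turned, with 1931 higher and 1590 lower of 21534, both larger shares than over all members. Without the 844 transcripts named above 2713 were higher and 2772 lower. With the 1342 transcripts left out at the start kept instead, 2713 were higher and 4958 lower. The median log2 ratio over all members was 0.04, the quartiles were -0.45 and 0.60, and 46997 members (72.6%) lay within 2-fold. No replicate shows how far 2 libraries of one condition would lie apart, so these counts carry no p-value. In whole thalli, fewer cells of a type and less RNA per cell cannot be told apart.

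Counting error alone bears on the low end of these lists. Of the higher transcripts 55.1% had fewer than 100 counts even in the resubmerged library, 1219 had at least 100 there and 202 had at least 1000. Of the lower transcripts 2275 had at least 100 counts in the desiccated library and 481 at least 1000. The 95% counting interval of the ratio, which covers counting error only since reads are not independent molecules, lay wholly beyond 4-fold for 1142 higher and 2462 lower transcripts, and wholly within 2-fold for 35344 members (54.6%). In amount, the higher transcripts took 2.18% of the counts in resubmerged thalli, against 0.170% in desiccated thalli and 1.42% in the control. The lower transcripts took 0.545% in resubmerged thalli, against 4.22% in desiccated thalli and 0.504% in the control.

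**Figure D1:**
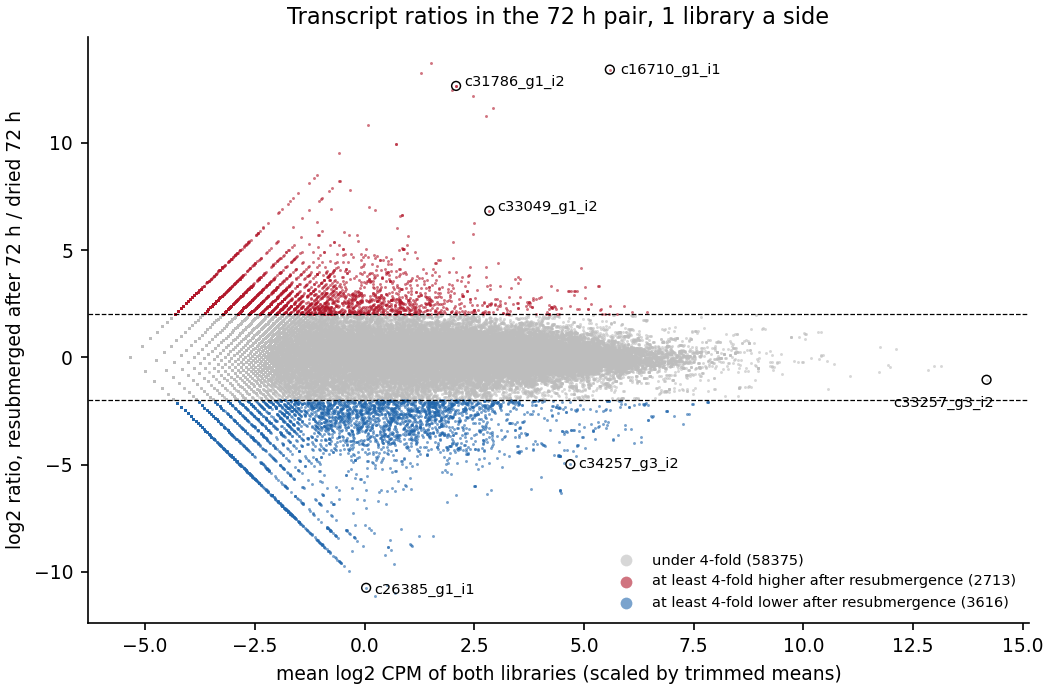
Each point is 1 of 64704 transcripts, with its mean log2 CPM over the library resubmerged after 72 h and the 72 h desiccated library on the horizontal axis and the log2 ratio between them on the vertical axis. Dashed lines mark 4-fold; 2713 transcripts lie above and 3616 below, most of them at low levels, and the slanted rows at the left are transcripts with few counts.

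On the higher side, 6 transcripts were taken with the highest lower limit of the counting interval, 1 per assembled gene, and they were nearly absent from the blades dried for 72 h. Transcript c16710_g1_i1 (1549 nt, 53.8% GC) had 467766 counts in resubmerged thalli, against 31 in desiccated thalli, a ratio of 11498 (95% counting interval 8100 to 16923). It alone held 0.595% of all counts in the library resubmerged after 72 h. Its counts were 41 and 407263 in the libraries resubmerged after 24 and 36 h, 75 and 121 in those desiccated for 24 and 36 h, and 265914 in the control. So it was high in 3 libraries, the control among them, and near absent in the other 4.

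Another 3 of the 6 repeat that arrangement. Transcript c34706_g3_i1 (1703 nt, 51.3% GC) had 27727 counts after resubmergence and 2 in desiccated thalli, with 22172 in the control. Transcript c34415_g1_i1 (3334 nt, 39.4% GC) had 34823 and 4, with 25595 in the control. Transcript c33025_g1_i1 (1648 nt, 48.6% GC) had 39791 and 8, with 38318 in the control. In the library resubmerged after 36 h these had 7079, 12055 and 31991 counts, and in the one resubmerged after 24 h 0, 1 and 1. Counts after 1 h in water were thus high in the 36 and 72 h libraries and at most 1 in the 24 h library.

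The remaining pair of the 6 was found in the library resubmerged after 72 h and hardly anywhere else. Transcript c31786_g1_i2 (1661 nt, 43.2% GC) had 31686 counts there, against 2 in the 72 h desiccated library and 0 to 5 in the other 5. Its ratio was 12072 (95% counting interval 3342 to 99690). Transcript c27841_g1_i1 (1685 nt, 41.7% GC) had 22279 counts in resubmerged thalli and 0 in desiccated thalli, which makes it at least 5659-fold higher against a floor of 3 counts. The other 5 libraries held 0 to 5 counts of it, the control 0. In all, 21 members in 18 assembled genes were found in this 1 library alone by the rule given below, with a median GC of 44.3%.

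On the lower side, 5 of the 6 transcripts taken the same way were nearly absent from the control as well. Transcript c26168_g1_i3 (973 nt, 53.3% GC) had 1 count in resubmerged thalli and 5180 in desiccated thalli, 6798-fold lower (95% counting interval 1220 to 268554), and 2 in the control. Transcript c32320_g1_i1 (1375 nt, 52.0% GC) had 1 and 4001 counts, with 4 in the control. Transcript c32084_g1_i1 (1174 nt, 57.2% GC) had 3 and 3169, with 2 in the control. Transcripts c31412_g1_i6 and c30976_g1_i6 had 3 and 1 counts in resubmerged thalli, against 2407 and 1330 in desiccated thalli, with 3 each in the control. All 5 had 566 to 16213 counts in the 4 libraries dried for, or resubmerged after, 24 and 36 h. Their counts are thus low in the library resubmerged after 72 h and in the control, and high in the 5 others.

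The sixth, c26385_g1_i1 (2487 nt, 30.8% GC), differs from these in that the control held it. It had 0 counts in resubmerged and 3008 in desiccated thalli, at least 1316-fold lower, and 1162 in the control. With it went c29430_g1_i1 (2507 nt, 27.0% GC) and c27924_g1_i1 (2698 nt, 32.7% GC), at 0 counts in resubmerged thalli and 1283 and 723 in desiccated thalli, which are at least 561 and 316-fold lower. These 3 are the only members with at most 3 counts in every resubmerged library and at least 100 in every other library, a rule set after their values were seen. Their counts kept nearly one proportion wherever they were present. Those of c29430_g1_i1 were 0.398, 0.422 and 0.427 of those of c26385_g1_i1 after 24, 36 and 72 h of drying and 0.372 in the control. Those of c27924_g1_i1 were 0.243, 0.283, 0.240 and 0.245 of them in the same order.

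**Figure D2:**
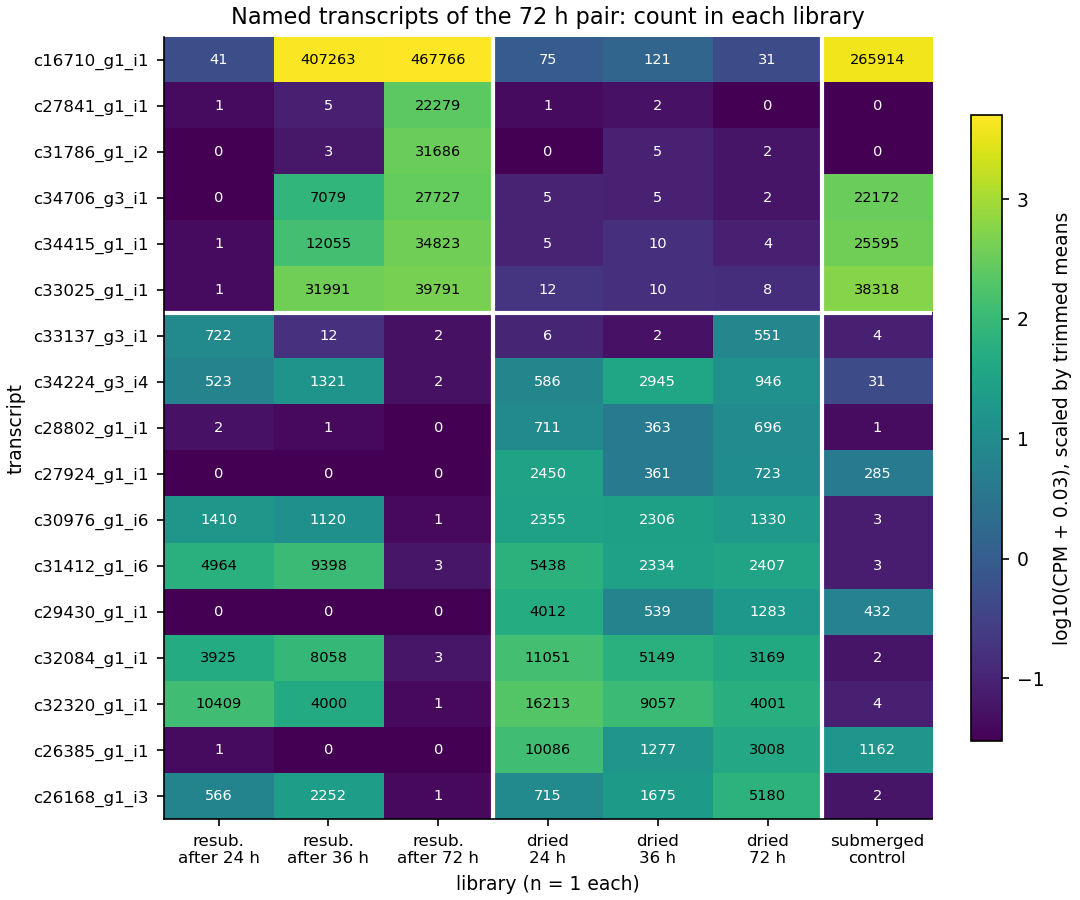
Rows are the 6 higher and 6 lower transcripts furthest apart in the 72 h pair by the near limit of the counting interval, and 5 more lower ones that come next once the set of 265 off in the library resubmerged after 72 h and the control is left out. Columns are the 7 libraries (n = 1 each), the printed number is the count and the colour is log10(CPM + 0.03). The upper 6 reach 22279 to 467766 counts in the library resubmerged after 72 h and at most 31 in the 72 h desiccated library. The lower 11 have 0 to 3 counts in the library resubmerged after 72 h. Some of them are high in other resubmerged libraries, such as c32320_g1_i1 with 10409 and 4000 counts after 24 and 36 h of drying.

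Such on or off transcripts were counted over every way of dividing the 7 libraries that puts the resubmerged and the desiccated 72 h library on different sides. A transcript was taken as on where each library of a side had 50 or more counts and 20 or more times the CPM of any library of the other side. By it 388 members divide the pair, 54 of the 2713 higher transcripts (40 assembled genes) and 334 of the 3616 lower ones (119 assembled genes). Without them 2659 transcripts were higher and 3282 lower, and the higher ones took 1.23% of the counts in resubmerged thalli, against 0.170% in desiccated thalli. The 1342 transcripts left out beforehand, in 810 assembled genes, met this rule with the 72 h desiccated library on alone. That division therefore holds no member.

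With that division emptied beforehand, the arrangement with the most members had 265 transcripts in 74 assembled genes. It was off in the library resubmerged after 72 h and in the control and on in the 5 others. Its median level was 0 CPM in both libraries where it was off, and 4.27 to 8.72 CPM in those where it was on. A further 29 transcripts (11 genes) were also off in the library resubmerged after 36 h. An example is c34582_g1_i3, with 229 counts in resubmerged thalli, against 14211 in desiccated thalli and 263 in the control. Conversely 25 transcripts in 17 genes, c16710_g1_i1 among them, were on in the control and the libraries resubmerged after 36 and 72 h only. Few divided the libraries by treatment throughout. On in the 3 desiccated libraries alone were 6 transcripts, 3 were off in the 3 resubmerged libraries alone, and no transcript was on in the 3 resubmerged libraries alone. With 1 library per condition, differences between the thalli used and the 1 h in water cannot be told apart.

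**Figure D3:**
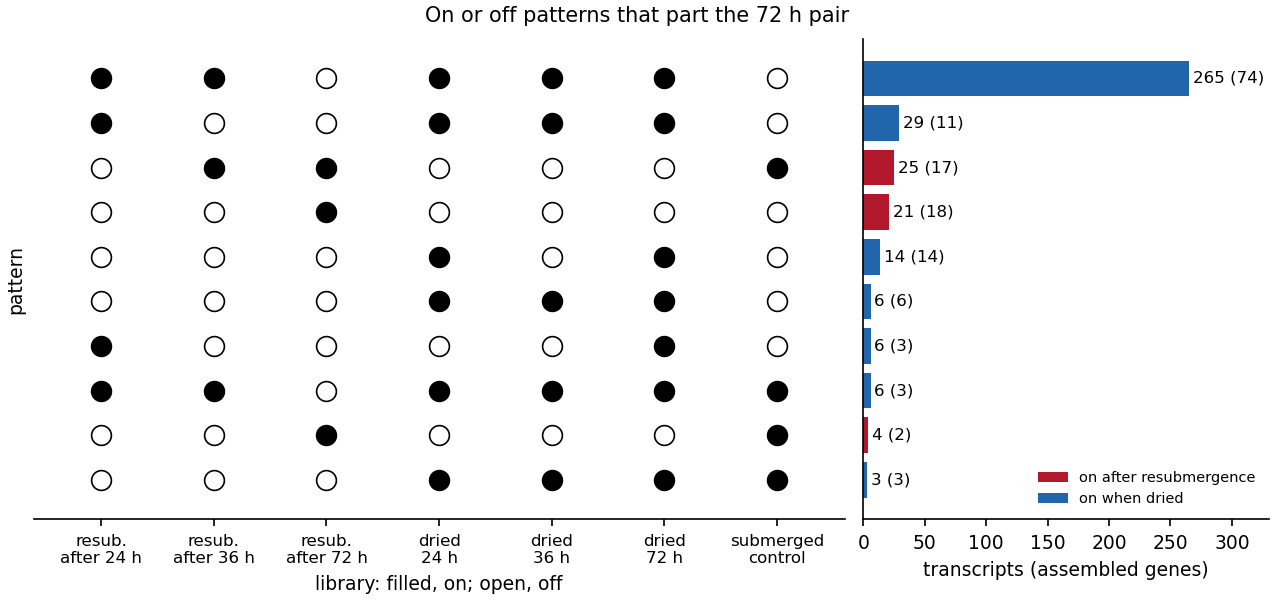
Each row is a division of the 7 libraries into those where transcripts are on (filled circles) and off (open circles), for divisions with 3 or more transcripts, and the bar gives the number of transcripts with the number of assembled genes in parentheses. The uppermost division, off in the library resubmerged after 72 h and the control, has 265 transcripts, and the next has 29. The division on in the 72 h desiccated library alone is not drawn, as its transcripts were left out beforehand.

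Levels between transcripts are compared here by the authors' FPKM, which accounts for length. Of the 100 members with the highest mean FPKM of the pair, in 62 assembled genes, 71 were within 2-fold, 1 was at least 4-fold higher and 6 were at least 4-fold lower. Over all members these shares were 72.6%, 4.19% and 5.59%, so abundant transcripts were about as often within 2-fold and as often lower. The highest of all, c68088_g1_i1 (236 nt, 61.0% GC), had 102538 FPKM in resubmerged and 118470 FPKM in desiccated thalli. The longest of the leading 6, c33257_g3_i2 (1333 nt, 54.1% GC), had 33373 and 61002 FPKM, or 1199697 and 1886759 counts, and was 2.06-fold lower. Transcript c34767_g1_i1 (1195 nt, 37.9% GC) had 731526 and 733712 counts in this pair. In the 24 and 36 h pairs it had 755857 and 591825 counts in resubmerged thalli, against 4504130 and 2893294 in desiccated thalli, with 641461 in the control. Its count after 72 h of drying was therefore already near that of the submerged control.

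The most abundant transcripts past 4-fold were ranked by FPKM in the library where they were higher. After c16710_g1_i1, which had 11198 FPKM in resubmerged and 0.863 FPKM in desiccated thalli, came c22462_g1_i1 (249 nt) with 1047 and 123 FPKM. Transcript c33049_g1_i2 (257 nt) had 1028 and 7.71 FPKM, with 26.3 FPKM in the control, and was 118-fold higher by count (95% counting interval 88.4 to 161). Transcript c33025_g1_i1, described above, had 895 and 0.209 FPKM. Transcript c32839_g1_i3 (511 nt) had 855 and 75.4 FPKM, against 602 FPKM in the control. On the lower side c34691_g1_i2 (399 nt) had 568 FPKM in resubmerged and 3140 FPKM in desiccated thalli, and c34257_g3_i2 (201 nt) had 78.6 and 2204 FPKM. Transcript c29539_g1_i1 (201 nt) had 73.1 and 1968 FPKM, with 201 FPKM in the control. Transcript c33839_g1_i3 (512 nt) had 136 and 1865 FPKM, with 19.3 FPKM in the control. In the library desiccated for 72 h these last 4 stood above the control, and after resubmergence 3 of them stood below it. Transcript c34376_g3_i1 (869 nt) had 163 and 672 FPKM and was listed at 0 in the control.

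The same step after shorter drying can be set beside the 72 h pair, with which it shares no library. It is not a fully separate check, since members and scaling were set over all 7 libraries. A transcript scarce in the 72 h pair is a member only if other libraries hold more of it. Of the 2713 transcripts higher after 72 h, 721 (26.6% of them, and 19.9% of the 24 h list) were also at least 4-fold higher in the 24 h pair, where 5.59% of all members were. In the 36 h pair 1173 (43.2%, and 13.9% of the 36 h list) were higher, where 13.0% of all members were. At least 4-fold lower in those pairs were 83 (3.06%) and 45 (1.66%) of the 2713, beside 3.35% and 7.13% of all members. Of the 3616 lower transcripts 467 (12.9%, and 21.5% of the 24 h list) were lower in the 24 h pair, beside 3.35% of all members, and 128 (3.54%) were higher, beside 5.59%. In the 36 h pair 549 (15.2%, and 11.9% of the 36 h list) were lower, beside 7.13% of all members, while 492 (13.6%) were higher, near the 13.0% of all members. The median log2 ratio of the higher list was 1.14 and 1.69 in the 24 and 36 h pairs, that of the lower list -0.39 and -0.09, and that of all members -0.05 and 0.01.

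**Figure D4:**
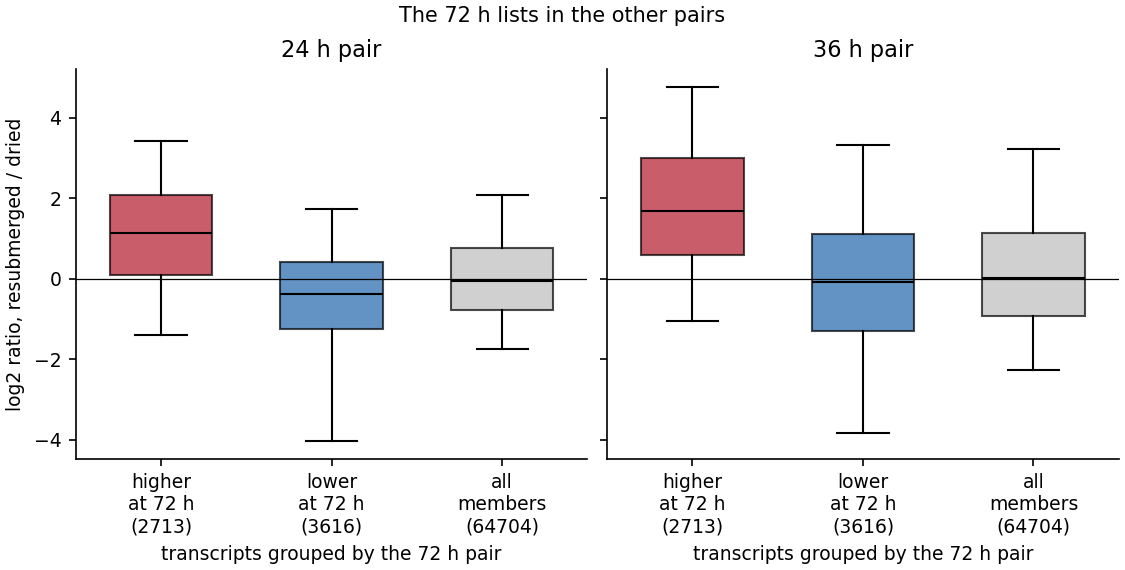
Boxes show the log2 ratio of resubmerged to desiccated thalli in the 24 h pair and the 36 h pair (median, quartiles, whiskers from the 5th to the 95th percentile) for transcripts higher at 72 h, lower at 72 h and all 64704 members. The higher list is shifted upwards in both pairs, with medians of 1.14 and 1.69, while the lower list lies near all members in the 36 h pair, with a median of -0.09.

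Past 4-fold in the same direction in all 3 pairs were 473 higher transcripts in 409 assembled genes (0.731% of the members) and 154 lower ones in 130 genes (0.238%). In the higher library of the 72 h pair 144 of the 473 and 79 of the 154 reached 100 counts. Among the 5 higher transcripts with the largest smallest ratio, c33674_g1_i2 (1630 nt, 62.1% GC) had 1606, 56039 and 3849 counts in the libraries resubmerged after 24, 36 and 72 h, against 65, 136 and 215 in the desiccated ones and 775 in the control. Transcript c30183_g1_i1 (1125 nt, 59.8% GC) had 91, 5293 and 342 counts after resubmergence, against 2, 2 and 16 in desiccated thalli and 44 in the control. Both were highest by far in the library resubmerged after 36 h. Transcript c29454_g1_i1 (576 nt, 48.3% GC) had 29, 27 and 65 counts, against 0, 0 and 2, and 0 in the control. Transcript c31710_g1_i1 (4314 nt, 52.1% GC) had 2583, 2740 and 2439 counts in the libraries resubmerged after 24, 36 and 72 h, against 190, 139 and 43 in the desiccated ones and 174 in the control. Its ratio was 13.3, 18.4 and 43.2, with the 72 h pair the widest. Transcript c29288_g2_i2 (1601 nt, 54.3% GC) had 1016, 489 and 1260 counts after resubmergence, against 30, 33 and 13 in desiccated thalli and 14 in the control. These last were several times above the dried thalli and the control in each resubmerged library, at similar counts in all 3 for c31710_g1_i1. In the other direction c30832_g1_i1 (588 nt, 50.9% GC) had 4, 0 and 0 counts after resubmergence, against 747, 282 and 396 in desiccated thalli, and 0 in the control. Transcript c28802_g1_i1 (616 nt, 48.7% GC) had 2, 1 and 0 counts, against 711, 363 and 696, and 1 in the control. These 2 were present in dried thalli and at or near 0 in all submerged ones.

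A few transcripts went one way at 72 h and the other way in both shorter periods. Such transcripts numbered 3 on the higher side and 46 (27 assembled genes) on the lower side. Transcript c33365_g2_i3 (1561 nt, 64.2% GC) had 346 counts in resubmerged and 4385 in desiccated thalli at 72 h, 16.6-fold lower (95% counting interval 14.9 to 18.6). In the 24 and 36 h pairs it had 145 and 103 counts in resubmerged thalli, against 14 and 8 in desiccated thalli, and 23 in the control. It stood at 15.6 times every other library in the 72 h desiccated library, near the limit of 20 beyond which transcripts were left out. Transcript c28401_g2_i1 (246 nt, 71.1% GC) had 104 and 1301 counts at 72 h, against 1091 and 52 at 24 h and 319 and 33 at 36 h, resubmerged thalli first in each. Transcript c26310_g1_i1 (1558 nt, 68.8% GC) had 37 counts in resubmerged and 253 in desiccated thalli at 72 h. At 24 and 36 h it had 825 and 848 counts in resubmerged thalli, against 103 and 100 in desiccated thalli. On the higher side the counts were small, as for c27587_g1_i1 (10796 nt, 44.7% GC) with 88 counts in resubmerged and 0 in desiccated thalli. No test of the difference between periods was possible with 1 library each.

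The 2 lists differ in where the library that sets them apart stands among the 7. Of the higher transcripts, 41.1% had their highest level of all in the library resubmerged after 72 h, beside 7.31% of all members, and 61.0% had their lowest level, ties counted, in the 72 h desiccated library, beside 13.9%. Of the lower transcripts 59.5% had their highest level in the 72 h desiccated library, beside 11.5% of all members. Because the lists were made from these same libraries, the shares describe them and test nothing. The median level of the higher list was 0.869 CPM in resubmerged and 0.0845 CPM in desiccated thalli, with 0.260 CPM in the control, where CPM is scaled by trimmed means. That of the lower list was 0.193 CPM in resubmerged and 2.52 CPM in desiccated thalli, with 0.180 CPM in the control.

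From 60% GC upwards the median ratio rose with GC content, and below that it followed no steady order. The 768 members with 70% GC or above had a median log2 ratio of 1.06, and 12.6% of them were at least 4-fold higher and 2.34% lower. Among the 6913 of 65 to 70% GC the median was 0.62, and among the 19039 of 50 to 55% GC it was -0.12. In the band from 40 to 45% GC both directions were frequent, with 19.0% of 699 members higher and 17.0% lower. In the 155 members of 35 to 40% GC 11.6% were higher and 25.2% lower. The 138 members under 35% GC had a median of 0, with 7.97% higher and 9.42% lower, beside medians of -2.50 and -1.66 in the 24 and 36 h pairs. In the 24 and 36 h pairs 43.0% and 64.1% of the members with 70% GC or above were at least 4-fold higher, and the difference from the 72 h pair was not tested. With the GC trend of each pair removed, 2422 transcripts were higher and 3760 lower at 72 h, and 383 and 106 in all 3 pairs. The shares of the 72 h higher list that were higher in the 24 and 36 h pairs were then 32.7% and 40.1%, beside 4.10% and 9.0% of all members. Of the 72 h lower list 9.15% and 13.7% were then lower in those pairs, beside 2.05% and 5.95% of all members. The part of GC content in the ratios was not tested further.

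**Figure D5:**
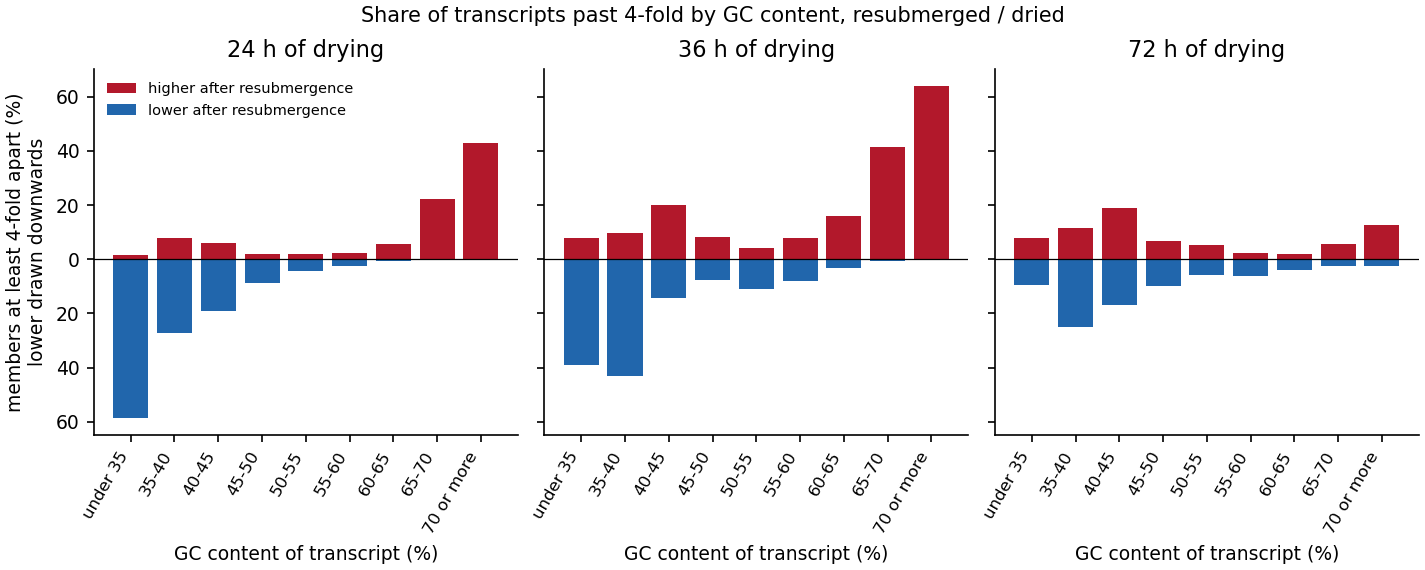
Bars give the percentage of members in each band of GC content that were at least 4-fold higher (upwards) or lower (downwards) in resubmerged than in desiccated thalli, for the pairs dried for 24, 36 and 72 h. At 70% GC or more the higher share is 43.0%, 64.1% and 12.6% in the 3 pairs, and in the 72 h pair the lower share peaks at 25.2% in the 35 to 40% band.

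Most assembled genes had isoforms with similar ratios, in a pair where 72.6% of all members lay within 2-fold. Of 8495 assembled genes with at least 2 members of 100 counts or more over the pair, 89.1% had less than 1 log2 unit between their highest and lowest isoform, and the median gap was 0.23. Whether isoforms share reads in these counts was not tested, so their ratios may not be independent. In 1 gene, c33675_g1, isoforms lay beyond 4-fold on both sides. Isoform c33675_g1_i8 (1124 nt) had 106 counts in resubmerged and 4 in desiccated thalli, while c33675_g1_i11 (645 nt) had 20 and 498. The longest of its 10 isoforms with enough counts, c33675_g1_i3 (10031 nt), had 2455 and 2623 counts. Of the 1847 assembled genes with a lower transcript, 991 had 1 member only. Another 444 had 2 or more members and every one lower, 1621 transcripts in all. The rest also held members that were not at least 4-fold lower. Of the 2130 assembled genes with a higher transcript, 1621 had 1 member only. Another 228 had 2 or more members and every one higher, 611 transcripts. The rest also held members that were not at least 4-fold higher, so isoforms of genes that differed were often mixed.

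The authors' deposited table of this comparison calls fewer transcripts. It sets 1 library against 1, so its adjusted p rests on no measured spread between libraries of one condition. With 0.05 as the limit of the adjusted p, the authors' deposited table holds 113 members in 69 assembled genes higher (0.175%) and 601 in 215 genes lower (0.929%) after resubmergence. Every one also passed 4-fold by the counts scaled here. Both use the same counts, so neither this nor the overlap with the transcripts named here is a separate check. Of the 601, the on or off arrangement shared with the control accounts for 214 and the transcripts at 5 times every other library in the 72 h desiccated library for 227. Of the 43 transcripts past 4-fold that the rules of size picked out, 33 were under that limit in the authors' deposited table. Of the 5 higher ones that stood past 4-fold in all 3 pairs, c31710_g1_i1 had an adjusted p of 1.99e-05 in the authors' deposited table, c29288_g2_i2 7.65e-05 and c33674_g1_i2 0.00186. The other two, c30183_g1_i1 and c29454_g1_i1, had 0.449 and 1 in the authors' deposited table.

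Some abundant transcripts hardly differed. The 4 with the narrowest counting intervals among those within 5% of a ratio of 1 were c79010_g1_i1, c33312_g1_i2, c34191_g1_i3 and c34149_g1_i1. Transcript c79010_g1_i1 (867 nt, 61.6% GC) had 119207 counts in resubmerged and 95256 in desiccated thalli, a scaled ratio of 0.954 (95% counting interval 0.946 to 0.962). Transcript c34149_g1_i1 (1540 nt, 49.4% GC) had 31141 and 23128 counts, a ratio of 1.03 (1.01 to 1.04). These were near level in this pair, but c34191_g1_i3 had 46389 and 36365 counts beside 6818 in the control. For c79010_g1_i1 the log2 ratio was -0.07, and between -0.16 and 0.02 under other scalings.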

How the data were processed

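RNA of 7 libraries, 1 per condition, was sequenced. The deposited expression table gives, per the file headers, read counts and FPKM values per assembled transcript with GC content in percent. Per the submitters' processing notes cutadapt, Bowtie2 and DESeq were used, but the sources used here do not give their roles or versions, or the assembler, the counting program and its strand setting. The counts sum to 2.56 to 2.91 times the reads that the deposited FPKM values imply. Whether reads shared between isoforms account for that was not tested. The authors' comparison table sets 1 library against 1. Per the file headers it holds a base mean, a fold change (ratio), and p-values before and after adjustment. The deposited base mean is a signal, by its values each count divided by a size factor. All counts in it equal those of the expression table.

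Counts as deposited were scaled by trimmed means (edgeR 4.0.16, R 4.3.3). Log2 ratios came from edgeR log-CPM values, prior count 2. Ratios have exact (Clopper-Pearson) 95% counting intervals, which cover counting error only, and a 0 was set at a floor of 3 counts. Scaling and ratio code was tested on simulated counts. DESeq2 1.42.0 gave other size factors. Transcripts named were taken by rules of size: the widest near limit of the counting interval, with and without the set of 265, the highest FPKM past 4-fold, the widest smallest ratio over 3 periods in one or in opposite directions, the widest isoform gap, the highest mean FPKM, the nearest to the 20-fold limit, and the narrowest interval near a ratio of 1, with 1 transcript per assembled gene. Examples of on or off arrangements and c33675_g1_i3 were chosen after their values were seen. Alternatives changed scaling, prior count, count filters, GC trend, isoforms and the sets left out. The members, rules and lists were chosen with earlier results of these data known.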

Additional observations from a re-analysis of the deposited data

Results flagged for a closer look

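Several named transcripts were at least 4-fold apart at 72 h in one direction and at least 4-fold apart in the other direction in the 24 h or the 36 h pair. Those named by the rule for opposite directions in both shorter periods are listed here because of that rule. They are c27587_g1_i1, c22339_g1_i1, c84481_g1_i1, c33365_g2_i3, c28401_g2_i1, c28401_g3_i1 and c26310_g1_i1. With 1 library per condition the difference between periods was not tested. In the 72 h pair the log2 ratio of resubmerged to desiccated thalli was 11.60 for c33025_g1_i1, 3.33 for c32839_g1_i3, 5.29 for c27587_g1_i1, 3.58 for c22339_g1_i1 and 2.04 for c84481_g1_i1. It was -7.39 for c33137_g3_i1, -2.21 for c34376_g3_i1, -4.05 for c33365_g2_i3, -4.01 for c28401_g2_i1, -3.47 for c28401_g3_i1 and -3.09 for c26310_g1_i1. For c84481_g1_i1, with 18 counts in resubmerged and 2 in desiccated thalli, the value was under 4-fold with DESeq2 size factors (1.98), and also with a prior count of 5. For c33025_g1_i1 the opposite value at 24 h rests on 1 count in resubmerged and 12 in desiccated thalli. Transcript c33137_g3_i1 had 2 counts in resubmerged and 551 in desiccated thalli at 72 h, but 722 and 6 at 24 h. Transcript c34376_g3_i1 had 3831 and 13541 counts at 72 h, but 3309 and 1 at 36 h.

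The 1342 transcripts left out as found nearly alone in the 72 h desiccated library took 1.42% of its counts, against 0.00682% in the control.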

How the results depend on the processing

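By the scaling and GC alternatives, the counts of transcripts at least 4-fold higher or lower stayed within 1.5 times of 2713, 3616, 473 and 154, and no named transcript past 4-fold turned its direction. They moved further with the filter on low counts. With no filter 5094 were higher and 14889 lower at 72 h, of 135868 transcripts rather than 64704. As a share of these the higher ones were slightly fewer than in the main setting, the lower ones more. With a mean count of 100 or more they were 830 and 1529 of 44689, and 114 and 53 in all 3 pairs. With at least 100 counts in a library of the pair, chosen after seeing the data, they were 1219 and 2275 of 46949, and 144 and 79. Both shares were then below those of the main setting. A prior count of 5 left 167 higher and 92 lower in all 3 pairs, because it draws scarce transcripts towards a ratio of 1. With 1 transcript per assembled gene 1590 of 21534 were lower at 72 h, against 3616 of 64704. The count fell because fewer transcripts were counted, while the share rose. The gene with isoforms on both sides was lost with at least 500 counts per isoform (0 genes). Depth limits the scarce transcripts, and intervals cover no spread between thalli. In the library where they were lower, 297 of the higher and 502 of the lower transcripts had 0 counts. Such a 0 does not by itself mark a scarce transcript. The set of 265, all on the lower list, had a median of 0 CPM in resubmerged thalli, with 50 or more counts each in desiccated thalli. Transcript c26385_g1_i1 had 0 and 3008 counts. How many of these zeros come from depth was not tested. No replicate could be left out, as each condition has 1 library.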

Other observations

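The share of transcripts past 4-fold differed between bands of level and length. Among the 3259 members with a mean FPKM of the 72 h pair under 0.5, 12.9% were at least 4-fold higher in resubmerged thalli and 6.20% lower. The share of higher transcripts was 10.2%, 5.05%, 1.53%, 1.02% and 1.80% in the bands of 0.5 to 2, 2 to 5, 5 to 20, 20 to 100, and 100 FPKM or more. That of lower ones was 8.61%, 8.21%, 4.05%, 2.69% and 5.39% in the same bands, so it did not fall steadily with level. Of 6861 members shorter than 500 nt, 6.46% were higher and 8.09% lower, and of 10034 members of 4000 nt or more 2.17% and 1.61%.

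Transcripts found in the library resubmerged after 24 h and the 72 h desiccated library, and in no other, numbered 6 in 3 assembled genes. Their leading example, c33137_g2_i2 (4984 nt, 40.1% GC), had 6 counts in thalli resubmerged after 72 h and 834 in those desiccated for 72 h. It had 1016 counts after resubmergence from 24 h, 14 after resubmergence from 36 h, 4 and 3 after 24 and 36 h of drying, and 3 in the control. Another 14 transcripts in 14 assembled genes were on in the libraries desiccated for 24 and 72 h alone, among them c29827_g2_i1 (551 nt, 42.5% GC) with 12 counts in thalli resubmerged after 72 h and 296 in those desiccated for 72 h.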
